A study of Mus musculus with 6 samples.

Results

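Isorhamnetin-treated NASH liver was compared with untreated NASH liver across the genes of the array. The comparison took in every probe set that is not a control, 45037 in all, on 4 of the 6 Affymetrix MG-430 PM arrays of the study, 2 NASH+ISO arrays and 2 NASH arrays, and the 2 arrays of healthy CTL liver stand beside them for level. Each probe set has a log2 signal per array that the authors made with RMA, so a difference of 1 is a 2-fold change. For counts of genes, each gene was represented by its brightest probe set on average, which gave 20670 genes.

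All mice were male C57BL/6J that arrived at 6 weeks of age, with 8 mice in each group. NASH+ISO mice ate a high fat diet (60% of calories) on days 0 to 24, had 4 injections of CCl4 (0.1 ml/kg, on days 14, 17, 21 and 24) and 5 injections of T0901317 (2.5 ml/kg, days 20 to 24), and were given isorhamnetin by mouth at 50 mg/kg a day on days 11 to 24. NASH mice had the same diet, CCl4 and T0901317, with the vehicle of isorhamnetin. CTL mice ate chow and had only vehicles. The median lobe of the liver was taken on day 25, the day after the last CCl4 injection. By the labels, arrays within a group are technical repeats, and nothing says how many mice stand behind an array, so the p-values below measure only the spread between arrays, which may be technical.

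Isorhamnetin is a flavonol, a methylated form of quercetin found in plants and formed in the body from dietary quercetin. NASH, nonalcoholic steatohepatitis, joins fat storage in hepatocytes with cell injury, inflammation and scarring. CCl4 is turned into a radical by the cytochrome P450 Cyp2e1 and kills hepatocytes around the central vein, after which surviving hepatocytes enter the cell cycle and stellate cells, the pericytes of the liver, lay down collagen. T0901317 activates the LXR receptors, which switch on genes of fatty acid synthesis, and since both NASH groups had it, both carry that stimulus.

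The tissue was liver by its defining transcripts. Albumin (Alb) read 12.58 and 12.59 on the NASH+ISO arrays and 12.56 and 12.57 on the NASH arrays, and 12 of 13 measured hepatocyte markers lay above a guide to background of 2.80, the highest mean among 17 controls that match no mouse transcript. Array medians were 3.49 and 3.5 in NASH+ISO and 3.46 in NASH, and the median absolute difference between the arrays of a group was 0.0525 in NASH+ISO and 0.0472 in NASH. Between the group means of NASH+ISO and NASH it was 0.115. The 3 prime minus 5 prime signal of the control probe sets of Gapdh, a measure of RNA integrity, was 3.29 and 3.30 in NASH+ISO, 3.0 and 3.01 in NASH and 3.79 and 3.82 in CTL. That of Actb was 4.98 and 5.02 in NASH+ISO, 4.41 and 4.43 in NASH and 4.88 and 5.0 in CTL. The 5 prime control probe set of 18S ribosomal RNA read 8.45 and 8.46 on the NASH+ISO arrays, 10.62 and 10.64 on the NASH arrays and 10.53 on both CTL arrays. The middle probe set of 18S read 8.9 and 8.92 in NASH+ISO, 9.87 and 9.88 in NASH and 9.85 and 9.87 in CTL. Its 3 prime probe set read 7.24 and 7.28 in NASH+ISO, 7.83 and 7.87 in NASH and 7.87 and 7.93 in CTL. All 3 were thus lower in NASH+ISO. Whether RNA integrity had a part in any difference below was not tested.

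In limma, with Benjamini-Hochberg adjustment over all 45037 probe sets, 107 probe sets (0.238%) were higher in NASH+ISO by at least 2-fold and 240 (0.533%) lower by at least 2-fold, relative to NASH, with an adjusted p under 0.05. At any fold, 8795 (19.5%) were higher and 7957 (17.7%) lower, a split that changed to 6711 higher and 9473 lower when each array was centred on its median. On the gene level, 58 genes (0.281%) rose and 128 genes (0.619%) fell at least 2-fold, and 4107 (19.9%) rose and 4091 (19.8%) fell at any fold. The counts of list members given below are to be read against these shares of all genes, of which 76.9% lay above the background guide. Bright probe sets passed more often. Of the 22518 brighter than the median, 6411 were higher and 6922 lower at any fold. A list made mostly of bright genes can therefore exceed the shares of all genes without standing out. The median difference over all genes was 0.021, with the 5th percentile at -0.45 and the 95th at 0.35. The values of the NASH+ISO arrays did not overlap those of the NASH arrays in 72.7% of genes, so a gap between the groups was common. Of the 64 genes lower at least 2-fold that had 2 or more probe sets above the background guide, all such probe sets passed downward in 43, and in 2 a probe set passed upward. For the 58 genes that rose these counts were 18 of 26 and 1. With all probe sets of a gene averaged, dim ones included, 37 genes were higher and 86 lower at least 2-fold, and averaged values are given below where they change the fold by over 1.5 times. Smaller changes also took some named genes below 2-fold. Averaged, Dbf4 was at -0.61, Col1a1 at -0.71, Socs2 at -0.58, Steap4 at -0.61, Cyp7a1 at -0.89 and Tnfrsf12a at -0.97. Il6ra was at 0.70, Ppargc1b at 0.74, Ypel2 at 0.89 and Txnip at 0.93. Among the genes named below, 19 lost their call when 1 NASH+ISO or NASH array was left out, namely Acta2, Adipoq, Atf3, Bax, Casp6, Cdc45, Cdca2, Cdca3, Chac1, Col4a1, Col4a2, Crp, Cry1, Hmox1, Hsf1, Nr3c1, Plin2, Ppara and Srebf1.

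**Figure D1:**
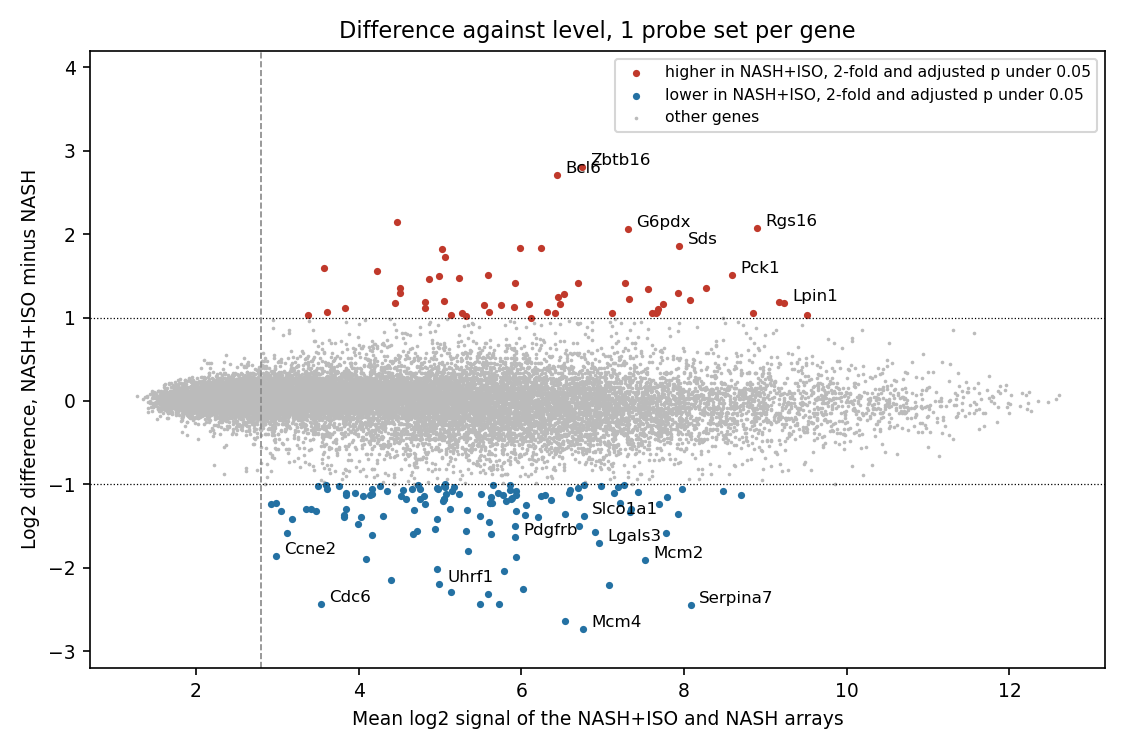
Each point is a gene, with the mean log2 signal of the NASH+ISO and NASH arrays on the horizontal axis and the log2 difference, NASH+ISO minus NASH, on the vertical axis. Red points are the 58 genes higher and blue points the 128 genes lower at least 2-fold at an adjusted p under 0.05 in limma, dotted lines mark 2-fold and the dashed line the background guide of 2.80. The lowest points are replication genes such as Mcm4, and the highest are Zbtb16 and Bcl6.

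Genes of DNA replication fell in NASH+ISO, and Mcm4 had the largest fall among genes with a probe set of their own. Before S phase the origin recognition complex, Cdc6 and Cdt1 load the helicase made of Mcm2 to Mcm7 on each origin, a step called licensing, which Gmnn blocks by binding Cdt1 and which the Cdc7 kinase with its activator Dbf4 turns into firing forks. Of 23 licensing and firing genes measured, 17 fell, 2 rose and 4 did not pass the test, and 11 fell at least 2-fold, with a median difference of -0.94 against 0.021 over all genes. The mean log2 level over the list was 4.90 and 4.91 on the NASH+ISO arrays, 5.96 and 5.97 on the NASH arrays and 4.54 and 4.56 on the CTL arrays. In whole liver, fewer cells of a kind and less RNA in each cell cannot be told apart.

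All 6 helicase subunits were among them. Mcm4 read 5.37 and 5.40 in NASH+ISO, 8.11 and 8.14 in NASH and 3.76 and 3.78 in CTL, a difference of -2.74 ± 0.0388 (SE) and 6.69-fold (adjusted p = 3.29e-07 in limma). Mcm5 read 5.20 and 5.25 in NASH+ISO, 7.81 and 7.92 in NASH and 2.75 and 2.86 in CTL (-2.64 ± 0.0578, adjusted p = 1.24e-06). Mcm3 read 4.45 and 4.54 in NASH+ISO, 6.94 and 6.95 in NASH and 3.32 and 3.40 in CTL (-2.44 ± 0.0484, adjusted p = 8.13e-07). In each of these genes the NASH+ISO arrays stood between the NASH and the CTL arrays, with no overlap. Mcm6 (-2.26), Mcm2 (-1.91) and Mcm7 (-1.58) fell too, and every probe set of the 6 subunits above the background guide passed downward. Averaged over all probe sets, Mcm5 was at -1.46, Mcm3 at -1.37 and Mcm6 at -1.52.

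The loading factors followed them. Cdt1 read 5.96 and 5.99 in NASH+ISO, 8.17 and 8.19 in NASH and 5.85 and 5.89 in CTL (-2.21 ± 0.0399, adjusted p = 6.14e-07, averaged -1.17). Cdc6 read 2.30 and 2.34 in NASH+ISO, which is under the background guide, and 4.75 on both NASH arrays, so it was at least 3.87-fold lower, with CTL at 2.02 and 2.05 also under the guide. Gmnn, the inhibitor of loading, fell as well (-1.17 ± 0.0416, adjusted p = 6.19e-06), as did Orc6 (-1.11), a subunit of the origin recognition complex, and Dbf4 (-1.05). The members that rose were Orc3 (0.33, averaged 0.08) and Cdc45 (0.21), and Cdc45 had 1 probe set up and 1 down. Gins3, Cdc7, Mcm10 and Orc1 lay between -0.15 and 0.11 and did not pass. With probe sets averaged, however, Cdc7 (-0.31) and Gins3 (-0.17) passed (adjusted p = 0.00281 and 0.0112 in limma).

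Many replication genes carry binding letters of the E2F factors near their start, and E2F factors are known to switch such genes on as cells pass from G1 to S. RefSeq promoter windows (GRCm38.p6, 250 bases before to 50 after the start) were found for 9 of the 11 licensing genes lower at least 2-fold. The E2F core letters TTTCCCGC, TTTGGCGC and TTTCGCGC were searched on both strands, where matches of different letters can overlap on opposite strands. They occurred in a window of 6 of those 9 genes and of 9 of the 18 licensing genes with a window, against 2.12% of 27025 genes, or 1.84% of 32851 windows. The windows of 4 of the genes with the largest falls are shown to let the letters be seen in place, each 5 prime to 3 prime on the strand of the gene with the matches in capitals.
Mcm5 (chr8:75109259-75109558, plus strand): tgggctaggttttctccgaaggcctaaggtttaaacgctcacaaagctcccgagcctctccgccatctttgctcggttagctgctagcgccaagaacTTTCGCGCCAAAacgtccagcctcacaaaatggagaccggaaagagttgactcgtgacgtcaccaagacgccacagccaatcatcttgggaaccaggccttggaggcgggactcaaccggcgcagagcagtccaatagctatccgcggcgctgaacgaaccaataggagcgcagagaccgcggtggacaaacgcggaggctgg
Mcm3 (chr1:20820263-20820562, minus strand): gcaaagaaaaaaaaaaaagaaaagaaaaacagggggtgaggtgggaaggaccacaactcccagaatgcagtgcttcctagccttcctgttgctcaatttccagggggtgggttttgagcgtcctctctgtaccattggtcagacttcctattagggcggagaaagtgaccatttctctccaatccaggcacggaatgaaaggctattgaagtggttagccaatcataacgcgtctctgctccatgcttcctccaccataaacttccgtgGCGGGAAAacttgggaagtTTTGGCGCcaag
Cdc6 (chr11:98907901-98908200, plus strand): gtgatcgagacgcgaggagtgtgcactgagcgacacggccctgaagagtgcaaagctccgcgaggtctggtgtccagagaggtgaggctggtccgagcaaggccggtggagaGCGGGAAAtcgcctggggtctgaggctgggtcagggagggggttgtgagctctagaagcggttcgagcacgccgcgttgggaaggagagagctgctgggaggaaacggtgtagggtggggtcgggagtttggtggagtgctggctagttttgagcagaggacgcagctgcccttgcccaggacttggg
Mcm6 (chr1:128359656-128359955, minus strand): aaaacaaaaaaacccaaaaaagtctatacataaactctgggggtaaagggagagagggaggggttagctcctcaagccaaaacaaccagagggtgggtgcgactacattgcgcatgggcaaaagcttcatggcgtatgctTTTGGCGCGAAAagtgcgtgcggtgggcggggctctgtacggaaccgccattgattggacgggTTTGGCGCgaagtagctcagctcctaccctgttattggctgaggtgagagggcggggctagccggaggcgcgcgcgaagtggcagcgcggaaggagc
In Mcm5 and at the upstream match of Mcm6 a pair of matches on opposite strands overlap and form a run of 12 bases. The matches of Mcm3 lie just after the start, at positions 20 and 39, those of Mcm5 begin at positions -153 and -149, that of Cdc6 at -138, and those of Mcm6 at -110, -106 and -47. No match was found in the windows of Mcm2, Orc6 and Dbf4, which says only that these letters are not in those windows. A match is a description of sequence and not of binding in these livers.

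Genes that copy DNA or supply its building blocks fell almost as a whole. Of 29 measured, 28 fell, none rose, 11 fell at least 2-fold, and the median was -0.79, with the thymidylate synthase Tyms alone not passing (0.14, NASH near background). Uhrf1, which guides the maintenance methyltransferase Dnmt1, read 3.89 and 3.90 in NASH+ISO, 6.07 and 6.10 in NASH and 3.27 and 3.38 in CTL (-2.19 ± 0.0485, adjusted p = 1.24e-06, averaged -1.39). Pcna, the sliding clamp of the polymerases, read 6.10 and 6.15 in NASH+ISO, 7.67 and 7.71 in NASH and 5.93 and 5.95 in CTL (-1.57 ± 0.0407, adjusted p = 2.48e-06). The NASH+ISO arrays were thus close to the CTL arrays in Pcna and a little above them in Uhrf1. Rpa2, which coats single strands, fell by 2.02 (averaged -1.23), and the clamp loader subunit Rfc4 (-1.90) and the primase subunit Prim1 (-1.56) fell as well. Falls past 2-fold in the brightest probe set were also found in the nucleotide enzymes Dck (-1.24), Dut (-1.22) and Rrm1 (-1.1) and the polymerase subunits Pola1 (-1.06) and Pold1 (-1.04). Averaged over all probe sets, these genes lay between -0.94 and -0.59, short of 2-fold.

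Regulators of the G1 to S step moved in both directions. Of 23, 19 fell, 2 rose and 2 did not pass (median -0.51, or -0.29 with all probe sets of a gene averaged). Chek1, the kinase that stalls the cycle when forks are damaged, read 3.92 and 4.07 in NASH+ISO, 6.25 and 6.31 in NASH and 3.64 and 3.71 in CTL (-2.29 ± 0.0603, adjusted p = 2.59e-06, averaged -0.76). Ccne2, a cyclin of S phase entry, read 2.05 on both NASH+ISO arrays, under the background guide, and 3.90 and 3.93 in NASH, and was at least 2.17-fold lower. E2f8 and Rbl1, repressors of E2F targets, were at -1.5 and -1.2 (averaged -0.75 and -0.29) and also fell, as did the activator E2f1 (-0.71). Cyclin D1 (Ccnd1) read 9.12 and 9.13 in NASH+ISO, 9.83 and 9.87 in NASH and 6.42 and 6.44 in CTL, so it fell by 0.73 and stayed far above CTL. The 2 that rose are brakes of the cycle, Cdkn1a and Rbl2 (0.42). Cdkn1a, which encodes the kinase inhibitor p21, read 7.46 and 7.51 in NASH+ISO, 6.70 and 6.71 in NASH and 4.78 and 4.91 in CTL (0.78 ± 0.0515, adjusted p = 5.79e-05).

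Of 39 genes of G2 and mitosis measured, 25 fell, 3 rose and 11 did not pass, with 3 lower at least 2-fold and a median of -0.27. The largest falls were in the condensin subunit Smc2 (-1.61, averaged -0.56), the kinase Pbk (-1.30, at least 2.40-fold), and Ect2 (-1.17), which starts cytokinesis. The proliferation marker Mki67 read 5.50 and 5.68 in NASH+ISO, 6.24 and 6.39 in NASH and 3.43 and 3.71 in CTL (-0.73 ± 0.102, adjusted p = 0.00156), and Cdk1, the kinase of mitotic entry, fell by 0.67. Its partner Ccnb1 (-0.15), the kinase Plk1 (-0.03) and the topoisomerase Top2a (-0.02) did not pass. With probe sets averaged, however, Top2a was at -0.38 and passed (adjusted p = 0.00364 in limma). Of the chromosome passenger and cycle genes Cdca8, Cdca2 and Cdca3, Cdca8 fell by 0.72, Cdca2 fell by 0.18, and Cdca3 rose by 0.25 in its brightest probe set and fell in another. Of 20 targets of p53, which halts the cycle after DNA damage, 11 rose, 3 fell and 6 did not pass (median 0.17). Cdkn1a led them, with the growth inhibitors Sesn2 (0.50) and Btg2 (0.42), while the kinase Plk3 (-0.57) and the death effector Bax (-0.26) were among those that fell.

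**Figure D2:**
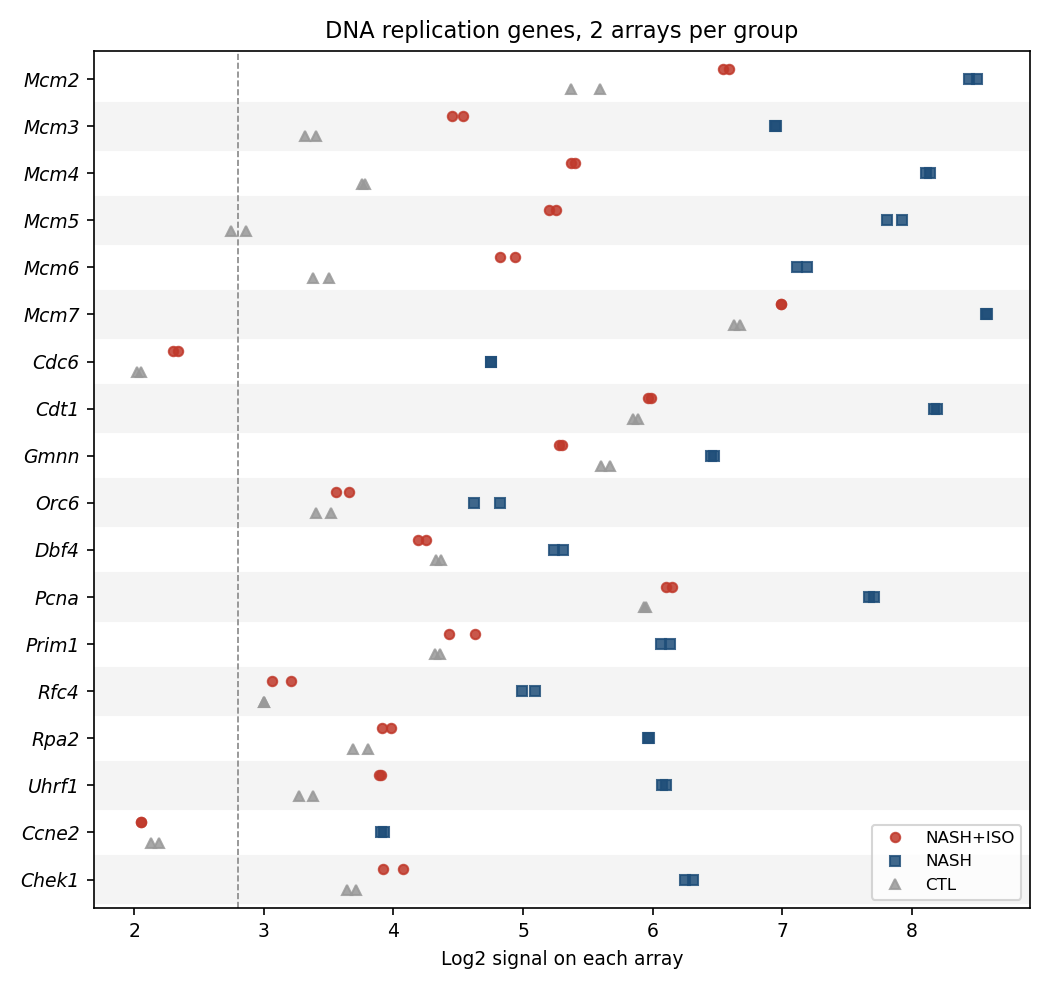
Log2 signal of 18 replication and cell cycle genes on each array, with NASH+ISO as red circles, NASH as blue squares and CTL as grey triangles, 2 arrays per group. The dashed line is the background guide of 2.80. In every gene shown both NASH+ISO arrays lie left of both NASH arrays, as for Mcm4 with 5.37 and 5.40 against 8.11 and 8.14.

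The lists of the cell cycle and of p53 targets, 133 genes in all, held 29 of the 128 genes that fell at least 2-fold and none of the 58 that rose. Over all 20670 genes, 0.619% fell and 0.281% rose at least 2-fold. These lists were chosen with earlier results of these data known, so the count describes them and is no test. The 30 largest falls held further genes. Fignl1, an ATPase of recombination, fell by 2.15 (averaged -1.1), beside the uracil glycosylase Ung (-2.04), the chromatin ATPase Atad2 (-1.87, averaged -0.71), the checkpoint adaptor Topbp1 (-1.80, averaged -0.91) and the condensin subunit Ncapg2 (-1.54). The zinc finger gene Zfp367 fell by 2.43 (averaged -1.22). Ung read 4.76 and 4.78 in NASH+ISO, 6.79 and 6.83 in NASH and 6.08 and 6.15 in CTL, so in this gene, unlike Mcm4, the CTL arrays lay nearer to the NASH arrays.

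A pair of serpin genes were also among the 30 largest falls. Serpina7, which encodes the thyroxine carrier of plasma, read 6.85 and 6.86 in NASH+ISO, 9.29 and 9.33 in NASH and 8.42 and 8.44 in CTL (-2.45 ± 0.0393, adjusted p = 4.25e-07). The pseudogene Serpina4-ps1 read 4.42 and 4.44 in NASH+ISO, 6.73 and 6.75 in NASH and 6.66 and 6.75 in CTL (-2.31 ± 0.0452, adjusted p = 8.05e-07), and 3 of 3 probe sets fell. In both, NASH+ISO was below NASH and below CTL. Over the serpin list 15 of 28 fell, 1 rose and 12 did not pass. Serpina6, the plasma carrier of corticosteroids, was the one that rose (0.22). The remaining genes of the 30 largest falls were the lymphoid repressor Bach2 (-1.60), the transglutaminase Tgm1 (-1.59), the membrane glycoprotein Gpm6a (at least 2.16-fold), the calcium binding S100a6 (-1.56), and Lgals3 and Pdgfrb, which are described with their cell types.

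Among genes with a probe set of their own, the largest rises were in Zbtb16 and Bcl6, transcriptional repressors of one zinc finger family. Zbtb16 read 8.14 and 8.17 in NASH+ISO, 5.33 and 5.36 in NASH and 7.65 and 7.70 in CTL, a difference of 2.81 ± 0.0414 and 7.03-fold (adjusted p = 3.29e-07). Bcl6, which represses genes of fatty acid oxidation and of growth hormone signalling in liver, read 7.79 and 7.8 in NASH+ISO, 5.06 and 5.10 in NASH and 8.12 and 8.14 in CTL (2.71 ± 0.0390, adjusted p = 3.29e-07). In both genes NASH stood alone, with NASH+ISO nearer to CTL than to NASH. All 3 probe sets of Zbtb16 and both of Bcl6 rose, and averaged over them Zbtb16 was at 2.58 and Bcl6 at 1.57.

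Zbtb16 is among the genes that glucocorticoids switch on, and 13 of 22 such genes rose, 3 fell and 6 did not pass, with 5 higher at least 2-fold and a median of 0.41, which was 0.21 when all probe sets of a gene were averaged. Mean levels over the list were 7.98 on both NASH+ISO arrays, 7.38 on both NASH arrays and 8.23 and 8.24 in CTL. Gpcpd1, which cleaves glycerophosphocholine, read 7.15 and 7.17 in NASH+ISO, 5.30 and 5.35 in NASH and 7.99 and 8.00 in CTL (1.84 ± 0.0393, adjusted p = 1.10e-06, averaged 0.76). Sds, Pck1 and Lpin1 were past 2-fold as well. The metallothionein Mt2 rose by 0.89, Klf9 by 0.76, the phosphatase Dusp1 by 0.69 and the chaperone Fkbp5 by 0.35. Some hallmark members did not pass, among them Tsc22d3 (0.08), Sgk1 (-0.12) and Tat (0.10), Per2 fell by 0.36, and the receptor Nr3c1 fell by 0.15.

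Genes of glucose production and of the fasting response rose, 13 of 20, with 3 that fell and 4 that did not pass (median 0.44, or 0.26 with all probe sets of a gene averaged). Pck1, which makes phosphoenolpyruvate and controls entry into gluconeogenesis, read 9.32 and 9.36 in NASH+ISO, 7.82 and 7.84 in NASH and 11.21 and 11.27 in CTL (1.51 ± 0.0413, adjusted p = 2.92e-06, averaged 0.66). G6pc, the phosphatase that releases free glucose, read 9.37 and 9.38 in NASH+ISO, 8.30 and 8.34 in NASH and 8.95 and 9.02 in CTL (1.06 ± 0.0426, adjusted p = 9.71e-06). Pck1 stayed below CTL while G6pc went above it. The insulin-restrained factors Foxo3 and Foxo1 rose by 1.16 (averaged 0.49) and 0.90, the insulin receptor substrate Irs2 by 0.91, and the coactivator Ppargc1a by 0.60. Igfbp1 fell by 0.89, although it is also a fasting gene, and Fbp1 (-0.03) and Pcx (0.07) did not pass. Among the 30 largest rises, the coactivator Ppargc1b read 7.90 and 7.96 in NASH+ISO, 6.66 and 6.76 in NASH and 8.27 and 8.33 in CTL (1.22).

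Of 35 enzymes of amino acid breakdown measured 21 rose, 5 fell and 9 did not pass, with a median of 0.18. Sds, the serine dehydratase, read 8.87 on both NASH+ISO arrays, 6.99 and 7.04 in NASH and 9.38 on both CTL arrays (1.86 ± 0.0390, adjusted p = 1.04e-06). Hal, the enzyme that starts histidine breakdown, read 6.85 and 6.95 in NASH+ISO, 5.07 on both NASH arrays and 8.72 and 8.76 in CTL (1.83 ± 0.0477, adjusted p = 2.48e-06). Gls2, the liver glutaminase, rose by 1.21, Amdhd1, also of the histidine pathway, by 0.84, and the proline oxidase Prodh by 0.82. Oat, the ornithine aminotransferase, fell by 1.01 and read 4.18 and 4.25 in NASH+ISO, 5.17 and 5.29 in NASH and 9.03 and 9.04 in CTL, which is the opposite direction to its neighbours. In the urea cycle 8 of 12 rose and 1 fell, led by Asl at 0.66, and in methionine and one-carbon metabolism 9 of 19 rose and 5 fell, led by Bhmt at 0.82.

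The other large rises were mixed in function. Rgs16, which shuts off G protein signals, read 9.93 and 9.94 in NASH+ISO, 7.85 and 7.88 in NASH and 9.14 and 9.32 in CTL (2.07 ± 0.0622, adjusted p = 3.94e-06). Ppp1r3g, which brings a phosphatase to glycogen, read 5.90 and 5.96 in NASH+ISO, 4.04 and 4.18 in NASH and 6.85 and 6.87 in CTL (1.82 ± 0.0549, adjusted p = 3.94e-06). Txnip, an inhibitor of thioredoxin and of glucose uptake, read 7.97 and 7.99 in NASH+ISO, 6.55 and 6.57 in NASH and 7.96 and 7.99 in CTL, a rise of 1.42. Rcan2, a regulator of the phosphatase calcineurin, rose by 1.73 (averaged 0.99), the beta 3 adrenergic receptor Adrb3 by 1.56 (averaged 0.91), the secreted ligand Nrg4 by 1.46, the matrix protein Smoc2 by 1.41, Pdzk1ip1 by 1.35, Smim22 by 1.34 (averaged 0.72), Ypel2 by 1.29 and the interleukin 6 receptor Il6ra by 1.25. N4bp2l1 is uncertain, since it rose by 1.28 in 1 probe set and fell in the other (averaged 0.52), and Rhox4b (1.51) belongs to a family of near-identical copies whose RNA its probes could also bind.

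**Figure D3:**
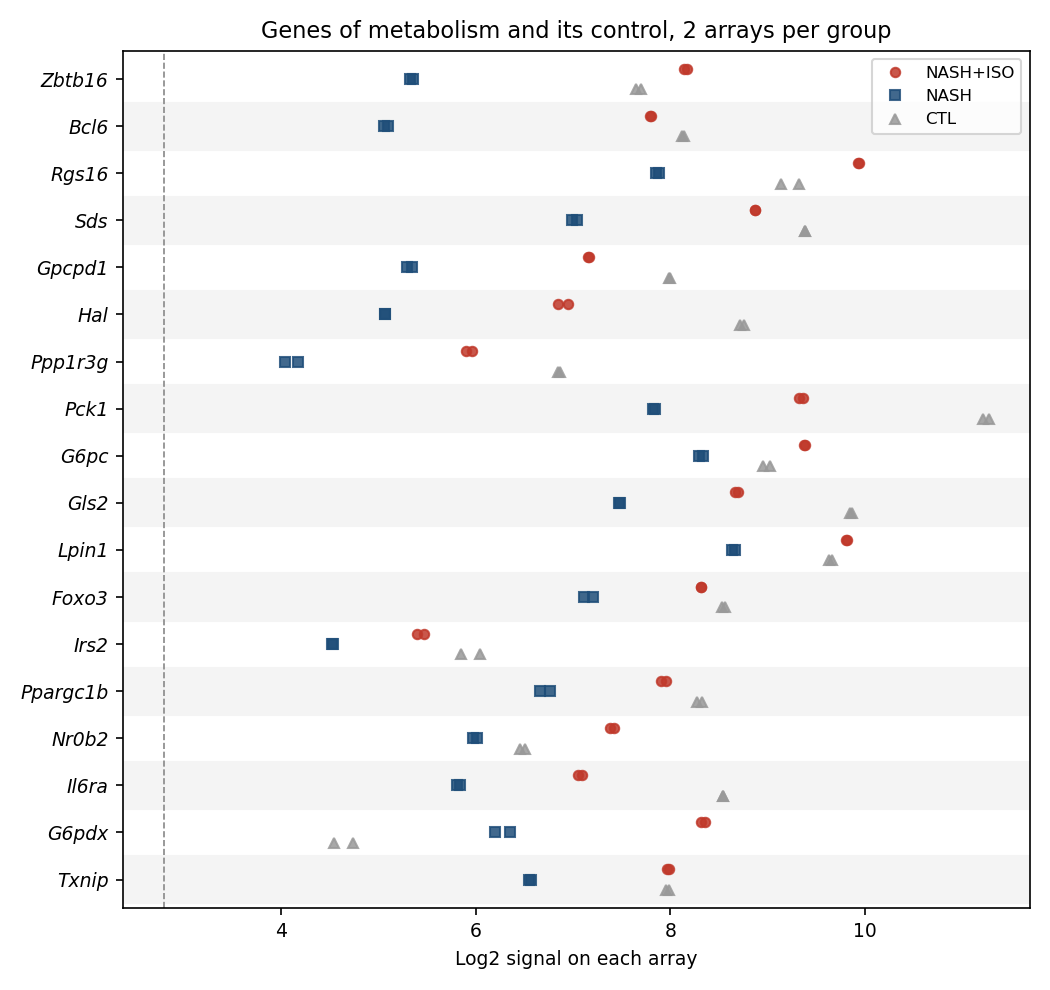
Log2 signal of 18 genes of metabolism and its control on each array, with NASH+ISO as red circles, NASH as blue squares and CTL as grey triangles, 2 arrays per group. The dashed line is the background guide of 2.80. In every gene shown both NASH+ISO arrays lie right of both NASH arrays, as for Pck1 with 9.32 and 9.36 against 7.82 and 7.84, while CTL lies above NASH+ISO in genes such as Pck1 and Hal and far below it in G6pdx.

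Of 21 clock genes, 12 rose, 2 fell and 7 did not pass (median 0.22), led by the period gene Per3 (0.92), Ciart (0.62) and the output factor Hlf (0.57). The output factors Dbp and Tef rose by 0.30 each, Cry1 (-0.69) and Per2 (-0.36) fell, and the core activators Clock (0.14, with 2 dimmer probe sets lower) and Arntl (-0.04) did not pass. No source used here gives the hour at which livers were taken.

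Genes of fatty acid and triglyceride synthesis rose, 14 of 22, with 3 that fell and 5 that did not pass (median 0.26). The mean level over the list was 10.31 on both NASH+ISO arrays, 10.07 on both NASH arrays and 8.52 and 8.54 in CTL. Lpin1, the phosphatase that makes diacylglycerol, read 9.81 and 9.82 in NASH+ISO, 8.63 and 8.67 in NASH and 9.63 and 9.66 in CTL (1.17 ± 0.0389, adjusted p = 5.10e-06). The probe sets of Acaca, acetyl-CoA carboxylase, also match LOC100503180, and the brighter read 10.04 and 10.05 in NASH+ISO, 8.97 and 9.0 in NASH and 7.66 and 7.72 in CTL (1.06 ± 0.0408, adjusted p = 8.33e-06). The dimmer rose by 0.54, short of 2-fold. Fasn, the fatty acid synthase, read 11.58 and 11.60 in NASH+ISO, 11.35 and 11.36 in NASH and 8.74 and 8.75 in CTL (0.23, adjusted p = 0.00288), and Acacb, Elovl6 and Acss2 rose by 0.51, 0.47 and 0.44. Srebf1, the factor that drives the pathway, fell by 0.14 (adjusted p = 0.0282), a call lost when any 1 of the NASH+ISO or NASH arrays was left out, and the desaturase Scd1 read 12.48 on both NASH+ISO arrays and 12.48 and 12.49 in NASH and did not pass.

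NADPH for this synthesis comes in part from the pentose phosphate pathway. Its entry enzyme G6pdx read 8.32 and 8.36 in NASH+ISO, 6.20 and 6.35 in NASH and 4.54 and 4.74 in CTL (2.06 ± 0.0768, adjusted p = 7.54e-06), so it was highest in NASH+ISO. The next enzyme, Pgd, rose by 0.70 with 4 of 4 probe sets, while Prps1 and Prps2, which lead pentose on to nucleotides, fell (-0.45 and -0.43). In glycolysis and glycogen metabolism 8 of 24 rose and 7 fell, against 19.9% and 19.8% of all genes. All 24 lay above the background guide, and bright probe sets passed more often. Pyruvate kinase Pklr rose by 0.79, while lactate dehydrogenase Ldha fell by 0.83.

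Of 25 genes of cholesterol synthesis and uptake 13 fell, 4 rose and 8 did not pass (median -0.15), with Cyp51 (-0.55) and Insig1 (-0.42) among the falls and the thiolase Acat2 (0.56) among the rises. Msmo1 fell by 0.87 in its brighter probe set and rose in the other (averaged -0.2). Of 16 LXR targets, 6 fell, 4 rose and 6 did not pass (median 0.00). The cholesterol exporter gene Abcg1 fell by 0.56, and Abcg5 and Abcg8 rose by 0.22 and 0.23.

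Of 24 genes of bile acid synthesis and transport 8 rose, 5 fell and 11 did not pass (median 0.03), where 19.9% of all genes rose and 19.8% fell. Nr0b2, the receptor SHP that bile acids induce through FXR and that represses bile acid synthesis, read 7.38 and 7.42 in NASH+ISO, 5.97 and 6.01 in NASH and 6.46 and 6.51 in CTL (1.41 ± 0.0423, adjusted p = 3.94e-06). Cyp7a1, the rate-limiting enzyme of bile acid synthesis and in mice an LXR target, read 7.90 and 7.98 in NASH+ISO, 9.01 and 9.02 in NASH and 6.34 and 6.40 in CTL (-1.08, adjusted p = 1.22e-05). Cyp8b1, which makes cholic acid, rose by 0.76. The uptake carrier Slco1a1 fell by 1.38, and the exporter Abcb11 and the carrier Slc10a1 rose by 0.19 and 0.44.

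Fatty acid oxidation and PPARA target genes fell, 17 of 28, with 3 that rose and 8 that did not pass (median -0.16). The thioesterases Acot3 and Acot1, close paralogs whose probes could overlap, fell (-0.91 and -0.76), as did the pyruvate dehydrogenase kinase Pdk4 (-0.65) and the ketone enzyme Bdh1 (-0.61). Cyp4a12a rose by 0.85, PPARA itself (Ppara) by 0.18, and the carnitine transferase Cpt1a (0.02) did not pass. On lipid droplets 9 of 23 genes rose and 5 fell, with Plin5 at 0.85, G0s2, the inhibitor of triglyceride lipase, at 0.67 and Plin2 at -0.18. Among lipoprotein genes 6 of 20 rose and 5 fell, against 19.9% and 19.8% of all genes. All 20 lay above the background guide, and bright probe sets passed more often. The lipoprotein lipase inhibitors Angptl4 (0.72) and Angptl8 (0.61) led the rises, and Apob (0.05) and Mttp (0.05) did not pass.

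Of 20 genes of growth hormone signalling measured, 10 fell, 9 did not pass and Bcl6 rose. Socs2, a direct STAT5 target, read 5.21 and 5.40 in NASH+ISO, 6.45 and 6.48 in NASH and 6.47 and 6.65 in CTL (-1.16 ± 0.0796, adjusted p = 6.87e-05), with 2 of its 5 probe sets above background passing. Onecut1 fell by 1.07, and Igfals (-0.58), Igfbp3 (-0.55), Cish (-0.44), Igf1 (-0.35) and the receptor Ghr (-0.38) fell as well. Of genes that in mouse liver are higher in males, 5 of 13 fell and 3 rose, with Slco1a1 (-1.38) and Mup3 (-0.36) against Cyp4a12a (0.85). Of those higher in females, 8 of 18 rose and 3 fell, led by Cyp17a1 (0.94), Fmo2 (0.75) and Cyp2b10 (0.65) on the one side and Acot3 (-0.91) and Abcd2 (-0.64) on the other.

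Of 29 xenobiotic P450 genes 13 fell and 7 rose, and of 30 conjugation enzymes 16 fell and 5 rose (median -0.17), with Ugt2b5 at -0.52, Gstm1 at -0.45 and Gstt3 at 0.72. The P450 that activates CCl4, Cyp2e1, read 10.99 and 11.00 in NASH+ISO, 11.05 on both NASH arrays and 11.88 and 11.89 in CTL and did not pass (-0.05 ± 0.0371, adjusted p = 0.319). Among NRF2 targets and thiol enzymes 13 of 28 fell, 3 rose and 12 did not pass. The glutathione synthetase Gss fell by 1.14, and the reductase Gsr (-0.52), Nqo1 (-0.37) and Hmox1 (-0.26) fell as well, while Txnrd1 (-0.48, averaged -0.04) had 1 of 2 probe sets going up. NRF2 itself (Nfe2l2, -0.01) and Sod1 (-0.06) did not pass. With both probe sets averaged, however, Nfe2l2 was at 0.37 and passed (adjusted p = 0.000814 in limma).

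Chaperone genes fell in both the endoplasmic reticulum and the cytosol. Of 28 genes of the unfolded protein response 21 fell, 2 rose and 5 did not pass (median -0.39). Hspa5, the chaperone BiP, read 9.33 and 9.38 in NASH+ISO, 10.34 and 10.35 in NASH and 9.18 and 9.20 in CTL (-1.0 ± 0.0397, adjusted p = 9.26e-06), and Manf and Creld2, secreted proteins of the same response, fell too (-1.15 and -1.07). Pdia3 fell by 1.01 in 1 probe set and rose in the other (averaged -0.41). The stress factors Atf4, Atf3 and Ddit3 fell (-0.48, -0.45 and -0.45), and Trib3 and Chac1 rose by 0.51 and 0.18. Of 15 heat shock genes 11 fell, 1 rose and 3 did not pass (median -0.60), led by Dnajb1 (-0.97), Hsph1 (-0.94) and Hsp90aa1 (-0.77), and the gene that rose was their activator Hsf1 (0.19). Of 19 ribosomal protein genes 16 fell and none rose (median -0.34), with a range from -0.57 in Rplp0 to 0.02 in Rpl27.

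Interferon-stimulated genes fell, 24 of 31, and none rose (median -0.35). The mean level was 5.20 and 5.21 in NASH+ISO, 5.56 and 5.57 in NASH and 4.93 and 4.94 in CTL. Ifit1, which binds foreign RNA, read 4.14 and 4.27 in NASH+ISO, 5.09 and 5.10 in NASH and 3.96 and 4.05 in CTL (-0.89, adjusted p = 4.88e-05 in limma). The GTPase Igtp (-0.83), Bst2 (-0.81) and the chemokine Cxcl10 (-0.68) fell, whereas Mx1, near background on all 4 arrays, Irf1 (0.02) and Oas2 (0.07) did not pass. In the acute phase list 11 of 24 fell and 7 rose. Saa3 read 5.13 and 5.22 in NASH+ISO, 6.64 and 6.71 in NASH and 6.61 and 6.62 in CTL (-1.5 ± 0.0474, adjusted p = 4.38e-06), the ferrireductase Steap4 fell by 1.09, Saa2 rose by 0.56 and Crp fell by 0.20. In MHC class II presentation 4 of 10 fell and 1 rose, and in complement and clotting 9 of 30 fell and 7 rose, with medians of -0.14 and -0.02. Over all genes 19.8% fell and 19.9% rose at any fold.

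**Figure D4:**
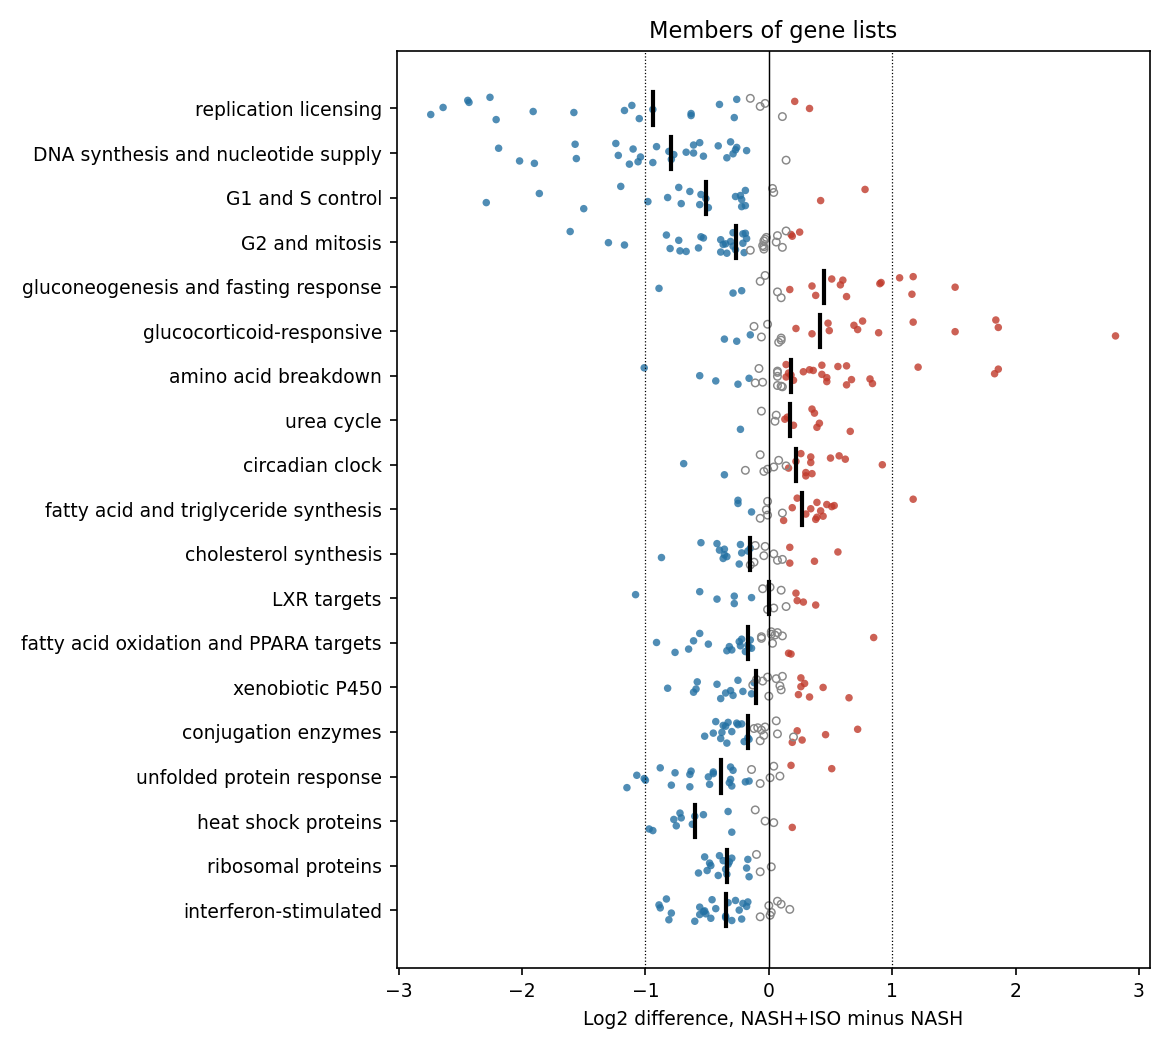
Log2 difference, NASH+ISO minus NASH, of each measured member of 19 gene lists. Filled points passed an adjusted p under 0.05 in limma (red higher, blue lower), open points did not, thick bars are list medians and dotted lines mark 2-fold. Replication licensing has the lowest median (-0.94) and gluconeogenesis the highest (0.44) of the lists shown.

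Of 20 stellate cell markers 14 fell, none rose and 6 did not pass (median -0.29). Pdgfrb, the PDGF receptor of activated stellate cells, read 5.09 and 5.12 in NASH+ISO, 6.74 on both NASH arrays and 4.93 and 4.95 in CTL (-1.63 ± 0.0380, adjusted p = 1.63e-06, averaged -1.03). The next largest falls were Pdgfra (-0.69), Reln (-0.68) and the tropomyosin Tpm2 (-0.64). Acta2, the actin of myofibroblasts, read 6.12 and 6.13 in NASH+ISO, 6.24 and 6.28 in NASH and 4.79 and 4.87 in CTL (-0.14, adjusted p = 0.0484). That call was lost when any 1 of the NASH+ISO or NASH arrays was left out (adjusted p = 0.0955 to 0.203) and with probe sets averaged (-0.05). The quiescent cell markers Lrat (0.00) and Des (-0.04) did not pass.

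Among 19 collagens 7 fell and 4 rose, with a median of 0.01 that became -0.06 to -0.03 when 1 array was left out. Col1a1 read 5.30 and 5.43 in NASH+ISO, 6.48 and 6.51 in NASH and 5.36 and 5.39 in CTL (-1.13, 2.19-fold, adjusted p = 1.57e-05), and Col3a1 (-0.90) and Col1a2 (-0.79) fell. The collagens that rose included the basement membrane chains Col4a5 (0.60) and Col4a2 (0.16), while Col4a1 fell by 0.18. Of 30 genes of matrix turnover and TGF-beta signalling 14 fell, 5 rose and 11 did not pass (median -0.14). The receptor Tgfbr1 read 6.00 and 6.05 in NASH+ISO, 6.62 and 6.63 in NASH and 6.64 and 6.65 in CTL (-0.60 ± 0.0393, adjusted p = 5.52e-05, averaged -0.15), and Ccn2, a TGF-beta target, fell by 0.52. Tgfbr2 and Smad4 rose by 0.33 and 0.31, Smad4 with another probe set lower (averaged -0.03). The ligand Tgfb1 read 3.65 and 3.66 in NASH+ISO and 3.51 and 3.67 in NASH and did not pass (0.07, adjusted p = 0.404).

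Lgals3, galectin 3, read 6.07 and 6.15 in NASH+ISO, 7.8 and 7.81 in NASH and 4.89 on both CTL arrays (-1.70 ± 0.0428, adjusted p = 2.25e-06). Lyz2, lysozyme, read 5.48 and 5.54 in NASH+ISO, 6.89 and 6.91 in NASH and 6.18 and 6.28 in CTL (-1.39 ± 0.0499, adjusted p = 6.54e-06), and cathepsin S (Ctss) fell by 1.30. These 3 were the members past 2-fold of a list of 18 markers of recruited and lipid-associated macrophages, of which 8 fell, 3 rose and 7 did not pass (median -0.18). Trem2 (0.03), Ccr2 (-0.17) and Itgam, near background, did not pass and Spp1 rose by 0.34. Of 15 Kupffer cell markers, resident macrophages, 10 fell and 1 rose (median -0.31), with Cd5l at -0.78, the complement genes C1qb and C1qa at -0.77 and -0.57, and Cd163 at 0.49, whereas the lectin Clec4f (-0.07) and Adgre1 (-0.19) did not pass. Of 25 chemokines and their receptors 9 fell and 3 rose, led by Ccl6 at -1.08.

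Of 20 endothelial markers 11 rose, none fell and 9 did not pass (median 0.17), led by the sinusoidal receptor Lyve1, which read 6.38 and 6.39 in NASH+ISO, 5.39 and 5.48 in NASH and 4.66 and 4.77 in CTL (0.95, adjusted p = 3.19e-05), and by Ehd3 (0.76) and Oit3 (0.63), whereas the general markers Cdh5 (0.11) and Pecam1 (0.15) did not pass. Of 18 cholangiocyte and progenitor markers 8 rose and 3 fell, with Prom1 at 0.61, Sox9 at 0.36 and Afp at -0.60, and the duct keratin Krt19 (0.04) did not pass. Hepatocyte markers had 3 of 13 higher and 4 lower and a median of 0.02. Of 12 neutrophil markers 2 rose and none fell with 8 of the 12 above the background guide, of 20 lymphocyte markers 4 rose and 1 fell with 15 above it, and of 12 erythroid markers 1 rose and 2 fell with 8 above it. Over all genes 19.9% rose and 19.8% fell at any fold, so the rises among neutrophil and lymphocyte markers were near the share of all genes. Of 10 adipocyte markers 4 rose and 2 fell with 7 above the background guide, and Adipoq was near background in both groups. Mean log2 levels over a list moved with these counts for stellate cells (5.17 on both NASH+ISO arrays, 5.55 on both NASH arrays), Kupffer cells (5.50 and 5.51 against 5.79 and 5.80) and endothelial cells (5.04 on both against 4.75 and 4.78). The part that cell numbers had in the matrix, macrophage or interferon genes was not tested.

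**Figure D5:**
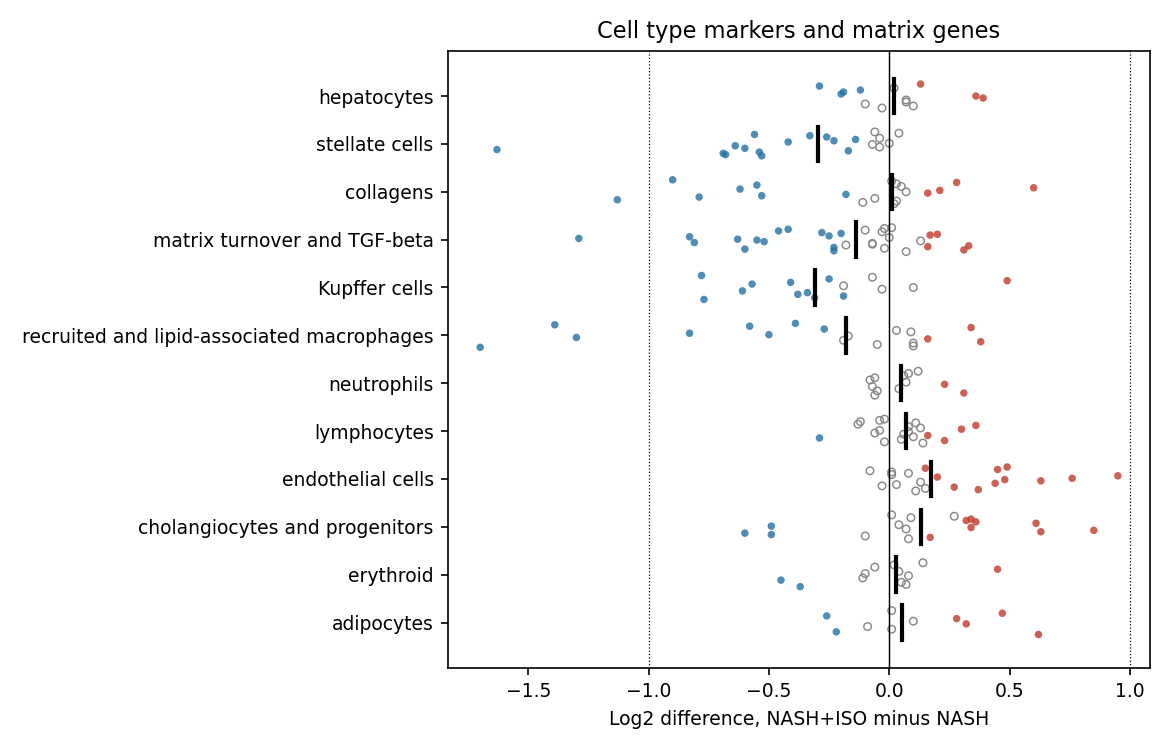
Log2 difference, NASH+ISO minus NASH, of each measured marker of 10 cell types and of collagen and matrix genes. Filled points passed an adjusted p under 0.05 in limma (red higher, blue lower), open points did not, and thick bars are medians. Stellate and Kupffer cell medians are -0.29 and -0.31, the endothelial median is 0.17 and the hepatocyte median 0.02.

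Of 29 death receptors, caspases and BCL2 family members 8 fell, 4 rose and 17 did not pass (median -0.04). Over all genes 19.8% fell and 19.9% rose, so this list as a whole did not stand out. Tnfrsf12a, the receptor of the cytokine TWEAK, read 4.59 and 4.72 in NASH+ISO, 5.66 and 5.72 in NASH and 4.77 on both CTL arrays (-1.03, adjusted p = 2.23e-05) and was the one member past 2-fold. Casp2 (-0.43) fell, and Casp6 (-0.17) fell with another of its probe sets higher. The Casp6 call was lost without NASH+ISO replicate 2 or NASH replicate 2 (adjusted p = 0.0521 and 0.069), with the workbook values (-0.11) and with probe sets averaged (-0.01). Fas (-0.15), Tnfrsf21 (0.08), Tnfrsf11b (-0.04, near background in NASH+ISO) and Tnf (-0.03) did not pass. Averaged over its probe sets, however, Tnfrsf11b was at -0.87 and passed (adjusted p = 1.81e-05 in limma). Gapdh is often taken as a constant gene, and the single probe set that names Gapdh alone, a dim one at 4.60 and 4.72 in NASH+ISO and 4.23 and 4.34 in NASH, rose by 0.37 in NASH+ISO. Control probe sets of Gapdh were not part of the comparison, so whether Gapdh RNA as a whole rose was not tested.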

How the data were processed

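Whole-liver RNA of each group was hybridised to 2 Affymetrix arrays (MG-430 PM). The authors deposited log2 signals per probe set, made by RMA in Expression Console (background correction, quantile normalization and probe set summary, versions not given in the sources used here). RMA sets the arrays to 1 distribution, so a shift of most genes in one direction would not show. The deposited workbooks hold a second set of log2 values, used as an alternative and for gene symbols, and comparisons that the authors computed in Transcriptome Analysis Console (fold changes, p-values), which were not used. Array number limits the precision.

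Of 45141 probe sets, 104 controls were left out. A model with 1 mean for each of the 3 groups was fitted to all 6 arrays with limma 3.58.1 (R 4.3.3), the contrast was NASH+ISO minus NASH, and p-values were adjusted by Benjamini-Hochberg over 45037 probe sets. A change was called at an adjusted p under 0.05, with or without a fold of at least 2. The residual degrees of freedom were 3. The 2-fold call was tried on simulated data with independent noise at the spread between arrays. Differences past 2-fold were planted in 200 probe sets brighter than the median. All 200 were recovered, with 0 false calls among the other probe sets. Differences so large against so small a spread were bound to be found. The trial therefore checks the code and says nothing about calls at any fold. A single gene was named by 38068 probe sets, several by 1253 and none by 5654, and 62 held a spreadsheet date in place of a symbol. Near background means a group mean under 2.80, and then a bound of at least so many fold is given, against that guide.

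Named genes were the 30 largest changes each way past 2-fold, up to 5 members of each list with the largest passing difference, and members that went the other way, did not pass or define a cell type, besides genes that the study names. Some genes that meet this rule are not reported here. Members and lists (52 lists, 1044 genes measured) were chosen with earlier results of these data known. Alternatives were another scaling, spread model, filter, fold, summary of probe sets, the workbook values, a replicate block and leaving out each array. Tables were handled with Python 3.11.15 and pandas 2.3.3. Promoter windows come from RefSeq (GRCm38.p6).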

Additional observations from a re-analysis of the deposited data

Results flagged for a closer look

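The hybridisation spike-ins are transcripts of bacterial and phage genes added to each labelled sample, in amounts that the sources used here do not give. Their 18 probe sets, used in no comparison above, all read higher on both NASH+ISO arrays than on each of the other 4 arrays. They were higher than in NASH by a median of 0.29 on the log2 scale (0.11 to 0.48) and higher than in CTL by a median of 0.25 (0.10 to 0.43). This was singled out as a signal outside the main measurement that lies above its level in the control samples. A scaling on the spike-ins was not tested. With 2 arrays in a group, no array could be tested as standing apart from the others of its group.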

How the results depend on the processing

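A fold of at least 1.5 gave 659 probe sets higher and 1116 lower (304 and 562 genes), and a fold of at least 3 gave 20 and 51 (11 and 24 genes). At any fold, 4888 probe sets were higher and 5579 lower without moderation of the spread, and 5514 were higher without NASH replicate 2. Leaving out each array in turn gave 5514 to 6453 higher and 5976 to 6563 lower at any fold, and at 2-fold 105 to 115 probe sets and 57 to 63 genes higher and 235 to 250 probe sets and 121 to 132 genes lower, where an array left alone in its group was assumed to vary like those of the other groups. Averaging all probe sets of a gene gave 37 genes higher and 86 lower. The 2-fold counts stayed within 1.5 times of 107 and 240 under every other alternative. An unadjusted p under 0.05 was reached by 11561 probe sets higher and 9594 lower.

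Over 369 genes that the rule takes in or the text names and 13 alternatives, 4580 of 4765 comparisons kept their side of the threshold. Changes of sign where neither value passed, such as Alb from 0.02 to -0.01 with median centring, count among them. Of the rest, 123 fell short of the threshold, 53 passed it newly and 9 changed sign with the main or the alternative value past it. All 9 came with probe sets averaged: Car3 0.34, Cd8a 0.00, Cdc45 -0.02, Cdc7 -0.31, Cdca3 -0.01, Ighm 0.07, Mt1 -0.02, Nfe2l2 0.37 and Smad4 -0.03. The cause was not tested beyond the disagreement of probe sets. The medians of 11 of 52 lists, none larger than 0.14, changed sign under an alternative, collagens among them. The deviations of same-numbered arrays correlated at 0.0916, 0.047 and 0.0465. With 2 arrays in a group, this cannot show whether same-numbered arrays were handled together. With the replicate block 107 probe sets were higher and 240 lower at 2-fold, 8861 and 7958 at any fold, and 58 and 128 genes at 2-fold. Of the genes named in the report, Col4a2 lost its call with that block, and Adgre1, Itgam and Tyms gained one.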

Other observations

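Some of the largest differences lay in probe sets that name several genes or none, which fall outside the rule for named genes and were chosen after their values were seen. The probe set shared by Xlr4a, Xlr4b and Xlr4c, X-linked genes of a lymphocyte-regulated family, read 2.58 and 2.62 in NASH+ISO, near background, 7.10 and 7.14 in NASH and 2.58 and 2.66 in CTL. It was at least 20.0-fold lower in NASH+ISO than in NASH (adjusted p = 1.07e-07 in limma). The probe set of the neighbouring family members Xlr3a, Xlr3b and Xlr3c read 3.83 and 3.90 in NASH+ISO, 6.37 and 6.43 in NASH and 2.91 and 2.92 in CTL (-2.54, 5.81-fold lower, adjusted p = 5.24e-07). In both, the NASH arrays stood above both other groups. The probes cannot tell the copies apart.

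Glutathione transferases of the alpha class shared a probe set (Gm3776, Gsta1 and Gsta2) that read 4.37 and 4.45 in NASH+ISO, 6.11 and 6.14 in NASH and 6.16 and 6.22 in CTL (-1.71, adjusted p = 2.89e-06), so here NASH+ISO stood apart from both other groups. A probe set that matches the histone variant gene H2afz and Gm8203 fell by 1.29, and the one for Psat1, of serine synthesis, and LOC100047252 fell by 1.15. The largest rise of all was in a probe set with no gene symbol, which read 7.68 and 7.69 in NASH+ISO, 3.69 and 3.92 in NASH and 7.64 and 7.66 in CTL (3.89, 14.8-fold, adjusted p = 6.14e-07).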
